A study of Mus musculus with 6 samples.

Results

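A set of 9 genes that make or remove the lipid messenger of PI3-kinase were followed in restimulated mouse CD4+ T cells. They were taken by name. They comprise the catalytic subunit genes Pik3ca, Pik3cb, Pik3cd and Pik3cg, the regulatory subunit genes Pik3r1, Pik3r2 and Pik3r5, and the lipid phosphatase genes Inpp5d and Inpp4b. All 9 were measured, each by 1 probe set, among 19937 genes tested. Naive CD4+ cells of B6 mouse spleen had been activated with anti-CD3 and anti-CD28 for 2 days and rested overnight, which applies to both groups. In 4 cultures the cells then met anti-CD3 alone, and in 2 cultures anti-CD3 together with anti-ICOS, for 20 min before 8 h of cross-linking with a goat anti-hamster antibody. Every culture was read on 1 array. The titles describe the replicates as biological and do not say whether mice were pooled, so a p-value here reflects array-to-array spread only. No group without restimulation and none with anti-ICOS alone was analysed here.

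Class I PI3-kinases phosphorylate a membrane lipid, PIP2, to PIP3, which recruits the kinase AKT and other proteins to the membrane. A catalytic subunit works in a pair with a regulatory subunit, which keeps it stable and brings it to phosphorylated receptors. ICOS and CD28 both carry a tyrosine motif in their tails that binds the regulatory subunit, and ICOS is known as a strong activator of PI3-kinase in T cells. The phosphatase SHIP-1 removes one phosphate from PIP3, and INPP4B acts on the product.

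The labelled cell type was checked first. Of 11 measured CD4+ T cell markers none lay below the median gene on all arrays, and their summed intensity was 38948 to 41446 in anti-CD3 replicates 1 to 3, 37751 in replicate 4 and 35436 to 36898 with anti-ICOS. Cd4 itself read 5090 to 5574 in replicates 1 to 3 and 4221 in replicate 4. With anti-ICOS it read 3938 and 4080 (limma adjusted p = 0.417), so that replicate 4 and the anti-ICOS arrays were the lowest. Cd4 fell the most of the 11 markers, which had a median log2 difference of -0.11, with 3 above 0 (42.3% of all genes). Bcl11b went the other way, at 1202 to 1236, 1606, and 1482 and 1492 in the same order, and Cd3g differed by -0.010. B cell markers were bright as well. All 7 measured B cell markers lay above the median gene on at least 1 array, with Cd79a, a chain of the B cell receptor complex, between 4380 and 5199. The summed B cell markers read 15973 to 18112 in anti-CD3 replicates 1 to 3, 18998 in replicate 4 and 17335 to 19090 with anti-ICOS. Bulk RNA cannot tell fewer cells of a type from less RNA per cell, and the part of B cell RNA in the values below was not tested. Array medians lay between 109 and 114, and the number of arrays limits the precision. Anti-CD3 replicate 4 stood apart. Across genes, which are not independent replicates, the Pearson correlation of its log2 values was 0.996 with each anti-ICOS array, against 0.986, 0.987 and 0.982 with replicates 1, 2 and 3 of its own group. The labels state no batch. The antibodies that replicate 4 received could not be checked from the arrays, so its label is taken as given, and the anti-CD3 mean and the comparison with replicate 4 alone both rest on that label. Differences of the 9 genes and of the pathway genes named are therefore given with replicate 4, without it, and against it alone. Leaving out replicate 4 was decided from these same values and sets aside the anti-CD3 array most like the anti-ICOS arrays. P-values without it may therefore come out too small. Against replicate 4 alone the reference is 1 array with no measured spread. Standard errors, intervals, p-values and counts of genes passing there rest on the spread among the other arrays.

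None of the 9 genes passed the test with all 6 arrays. By limma with Benjamini-Hochberg adjustment over all genes 0 of 9 were past the threshold, against a background of 0.271% of all genes. At an unadjusted p under 0.05 it was 1 of 9, Pik3cb, where 11.8% of all genes had such a p. The smallest adjusted p was 0.264 and the largest 0.874. The differences, taken throughout as the anti-ICOS group less the group with anti-CD3 alone on the log2(intensity + 16) scale, were above 0 for all 9 genes, with a median of 0.095, while 42.3% of all genes lay above 0 with a median of -0.031. With quantile normalization 7 of the 9 lay above 0, and with array weights, with the replicate block or without replicate 4 it was 8. Against replicate 4 alone it was 5, where 44.5% of all genes lay above 0.

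**Figure D1:**
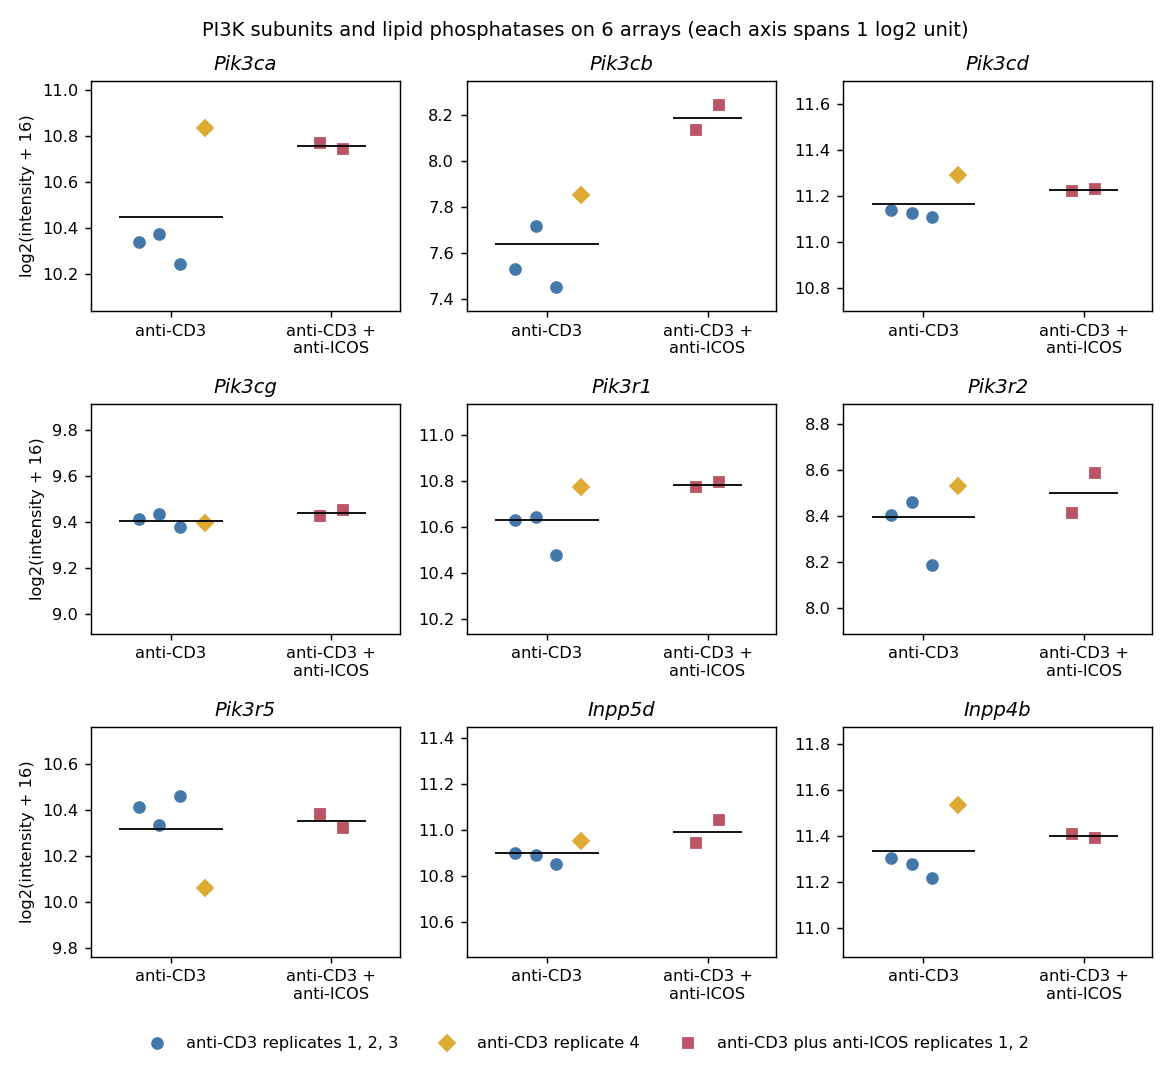
Each panel plots 1 gene on the log2(intensity + 16) scale, with 1 point per array and a black line at each group mean. In Pik3cb both anti-ICOS points lie higher than any anti-CD3 point, and in Pik3ca, Pik3cd and Inpp4b replicate 4 lies above both anti-ICOS arrays.

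Pik3cb encodes the beta catalytic subunit, a broadly expressed isoform that can also be driven by G protein-coupled receptors. It read 7.53, 7.72, 7.45 and 7.85 on the log2 scale in anti-CD3 replicates 1 to 4, and 8.13 and 8.24 with anti-ICOS. The lower anti-ICOS array exceeded the highest anti-CD3 array, which was replicate 4. The group means were 7.64 ± 0.18 (SD, n = 4) and 8.19 ± 0.077 (SD, n = 2), a difference of 0.55 ± 0.12 (SE) or 1.46-fold on this scale (limma adjusted p = 0.264). Pik3cb was the only one of the 9 genes without overlap between the groups, and 8.51% of all genes were separated in the same direction.

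The Pik3cb difference was 0.62 ± 0.090 without replicate 4 (limma adjusted p = 0.00254), which passed the test, as 29.7% of all genes did in that fit. Against replicate 4 alone, where the reference is 1 array, it was 0.33. It was above 0 in each of 17 alternative settings, between 0.33 and 0.62. Among these, a change of prior, of gene filter or of probe set handling cannot move the difference of a gene with 1 probe set. Markers of some other cell types lay higher on the same arrays. Of 8 dendritic cell markers 1 passed the test, Flt3, a growth factor receptor of dendritic cell precursors, and their summed intensity was 686 to 741 in anti-CD3 replicates 1 to 3, 792 in replicate 4, and 1102 to 1107 with anti-ICOS. Of these 8, Xcr1, Clec9a, Siglech and Cd209a lay below the median gene on all 6 arrays. The 7 measured NK cell markers summed to 654 to 722, 1140, and 1359 to 1362 in the same order, and the 7 monocyte and macrophage markers to 730 to 759, 1208, and 1231 to 1878. The 8 neutrophil markers summed to 486 to 566, 450, and 602 to 1418, and the 8 mast cell and basophil markers to 412 to 472, 370, and 534 to 673. In these last lists the sum was lowest in replicate 4 and highest on both anti-ICOS arrays. Genes of a list did not move alike. Mpo read 68 to 90, 71, and 138 and 538 in the same order, and Camp 84 to 113, 86, and 79 and 82. Much of the NK cell sum came from Tyrobp (157 to 173, 269, and 451 and 494) and Eomes (262 to 346, 557, and 560 and 538). Differences were above 0 for 7 of 8 dendritic cell, 7 of 7 NK cell and 6 of 7 monocyte and macrophage markers. It was 5 of 8 neutrophil and 6 of 8 mast cell and basophil markers, and 42.3% of all genes. The 2 CD8 markers summed to 3859 to 4128, 4704, and 4352 to 4509, and the 3 measured erythroid markers to 226 to 250, 208, and 231 to 261. Apart from Flt3 no marker of these lists passed the test. Of the neutrophil markers 5 lay below the median gene on all arrays, of the mast cell and basophil markers 7, and of the erythroid markers 3. In addition 4 of the NK cell markers (Ncr1, Klrb1c, Klra8 and Klre1) and 3 of the monocyte markers (Csf1r, Cd14 and Fcgr1) lay below the median gene on all arrays. Their part in the Pik3cb values was not tested.

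Pik3ca encodes the alpha catalytic subunit, an isoform found in most tissues. It read 10.34, 10.37 and 10.24 in anti-CD3 replicates 1 to 3, 10.84 in replicate 4, and 10.77 and 10.75 with anti-ICOS. Replicate 4 had the highest value of the 6 arrays, so the groups overlapped, and the other 3 anti-CD3 arrays lay well below. The mean was 10.45 ± 0.27 (SD, n = 4) with anti-CD3 and 10.76 ± 0.017 (SD, n = 2) with anti-ICOS. The difference was 0.31 ± 0.16 (SE, limma adjusted p = 0.426).

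Without replicate 4 Pik3ca was higher with anti-ICOS by 0.44 ± 0.067 (limma adjusted p = 0.00315), or 1.36-fold. Against replicate 4 alone, where the reference is 1 array, the direction turned, at -0.079. Replicate 4 itself lay 0.52 above the mean of replicates 1 to 3.

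Pik3cd encodes the delta subunit, which is concentrated in white blood cells and is the main PI3-kinase isoform downstream of the T cell receptor, CD28 and ICOS. It read 11.14, 11.13 and 11.11 in replicates 1 to 3, 11.29 in replicate 4, and 11.22 and 11.23 with anti-ICOS. The anti-ICOS values fell between replicate 4 and the other 3. The difference was 0.061 ± 0.079 (SE, limma adjusted p = 0.664) with an interval from -0.12 to 0.25. Without replicate 4 it was 0.10 ± 0.060 (limma adjusted p = 0.216), and against replicate 4 alone -0.064 ± 0.080.

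Pik3cg encodes the gamma subunit, which signals mainly from G protein-coupled receptors such as chemokine receptors. It varied least of the 9 genes, reading 9.41, 9.44, 9.38 and 9.40 in anti-CD3 replicates 1 to 4, and 9.43 and 9.45 with anti-ICOS. All 6 values lay within 0.073, and the groups overlapped. The difference was 0.033 ± 0.064 (SE, limma adjusted p = 0.782), with an interval from -0.12 to 0.18, and its sign turned with quantile normalization (-0.060). Without replicate 4 it was 0.029 ± 0.061, with an interval from -0.11 to 0.17, and against replicate 4 alone 0.042 ± 0.082.

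Among the regulatory subunits, Pik3r1 encodes the alpha forms that pair with the alpha, beta and delta catalytic subunits, and its 1 probe set was not used to separate its long and short forms. It read 10.63, 10.64 and 10.48 in replicates 1 to 3, 10.77 in replicate 4, and 10.77 and 10.79 with anti-ICOS. Replicate 4 and anti-ICOS replicate 1 were equal to 2 decimals, and the other 3 anti-CD3 arrays were lower. The difference was 0.15 ± 0.093 (SE, limma adjusted p = 0.444), 0.20 ± 0.074 without replicate 4 (limma adjusted p = 0.0756) and 0.011 ± 0.099 against it alone. With array weights, which gave replicate 4 a weight of 0.15 and replicate 1 a weight of 4.53, Pik3r1 passed the test (0.16 ± 0.049, limma adjusted p = 0.0277). In that fit 9413 of all 19937 genes passed.

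Pik3r2, the gene of the beta regulatory subunit, read 8.40, 8.46, 8.18 and 8.53 in anti-CD3 replicates 1 to 4, and 8.41 and 8.59 with anti-ICOS. The groups overlapped, and replicate 3 was the lowest array. The difference was 0.10 ± 0.11 (SE, limma adjusted p = 0.610), and the 2 anti-ICOS arrays were 0.18 apart. It was 0.15 ± 0.099 without replicate 4 (limma adjusted p = 0.270) and -0.033 ± 0.13 against it alone. Single arrays moved it as far, to 0.034 without anti-CD3 replicate 3, and to 0.19 and 0.015 without anti-ICOS replicates 1 and 2, and with quantile normalization it was 0.0029.

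Pik3r5 encodes the regulatory subunit that links the gamma catalytic subunit to G proteins. It was the only one of the 9 genes in which replicate 4 was the lowest array. It read 10.41, 10.33 and 10.46 in replicates 1 to 3, 10.06 in replicate 4, and 10.38 and 10.32 with anti-ICOS. The anti-ICOS arrays thus lay near replicates 1 to 3 and apart from replicate 4. The difference was 0.036 ± 0.12 (SE, limma adjusted p = 0.874), and -0.049 ± 0.068 without replicate 4 (limma adjusted p = 0.596). Against replicate 4 alone, where the reference is 1 array, it was 0.29.

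The phosphatase genes differed little between the groups. Inpp5d encodes SHIP-1, which is found mainly in blood cells. It read 10.90, 10.89, 10.85 and 10.95 in anti-CD3 replicates 1 to 4, and 10.94 and 11.04 with anti-ICOS. Replicate 4 lay between the 2 anti-ICOS arrays. The difference was 0.095 ± 0.071 (SE, limma adjusted p = 0.491) with an interval from -0.072 to 0.26, 0.11 ± 0.065 without replicate 4 (limma adjusted p = 0.213) and 0.042 ± 0.087 against it alone. Inpp4b read 11.31, 11.28 and 11.22 in replicates 1 to 3, 11.53 in replicate 4, and 11.41 and 11.39 with anti-ICOS. Replicate 4 was again the highest array. The difference was 0.067 ± 0.10 (SE, limma adjusted p = 0.709), 0.13 ± 0.063 without replicate 4 (limma adjusted p = 0.140) and -0.13 ± 0.085 against it alone.

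**Figure D2:**
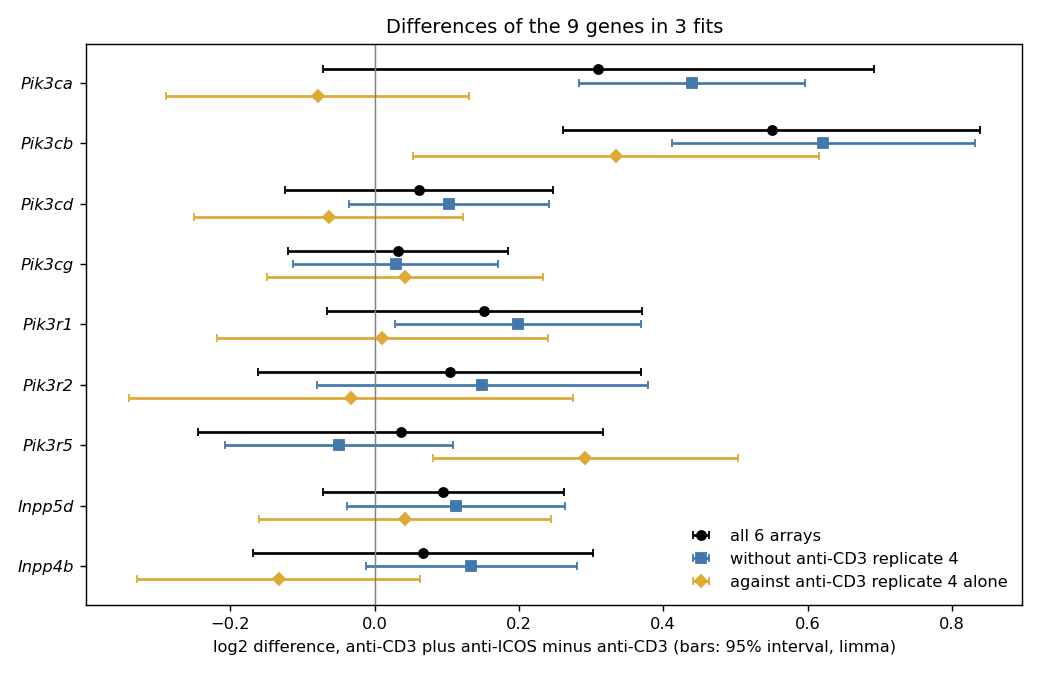
Points give the log2 difference of each gene and bars its 95% interval, with all 6 arrays, without anti-CD3 replicate 4, and against replicate 4 alone. Replicate 4 has no spread of its own, so the bars against it come from the spread of the other arrays. The point of Pik3cb lies above 0 in all 3 fits (0.55, 0.62 and 0.33), and that of Pik3ca turns from 0.31 and 0.44 to -0.079.

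Seen over the 9 genes, leaving out replicate 4 put 2 past the threshold, Pik3cb and Pik3ca, both higher with anti-ICOS. In that fit 29.7% of all genes passed. Against replicate 4 alone 0 of 9 passed, where 0.176% of all genes did. At an unadjusted p under 0.05 that fit had 2 of the 9, Pik3cb and Pik3r5, and 5.1% of all genes. Both anti-ICOS arrays lay above anti-CD3 replicates 1 to 3 in 6 of the 9 genes, and in 28.5% of all genes. Replicate 4 alone lay above replicates 1 to 3 in 7 of the 9 (34.5% of all genes) and below them in 1, Pik3r5 (42.5% of all genes).

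Relative to the mean of replicates 1 to 3, which both values share as their reference, replicate 4 and the anti-ICOS mean lay at 0.52 and 0.44 in Pik3ca, at 0.17 and 0.10 in Pik3cd and at 0.27 and 0.13 in Inpp4b. In these 3 genes replicate 4 was farther than the anti-ICOS mean from replicates 1 to 3, as it was in Pik3r2 (0.18 and 0.15). In Pik3cb the order was the other way, with 0.29 in replicate 4 and 0.62 with anti-ICOS, and so it was in Pik3r1, Inpp5d and Pik3cg. For Pik3r5 replicate 4 was again the farther, on the lower side, at -0.34 against -0.049 for the anti-ICOS mean.

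**Figure D3:**
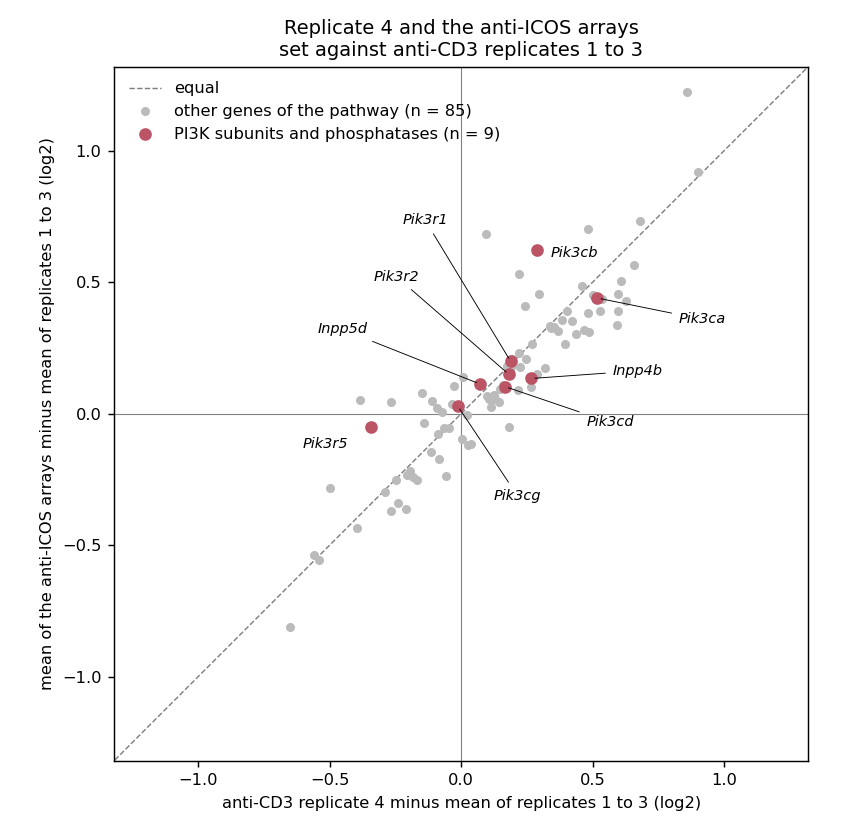
Each point is 1 gene, red for the 9 genes and grey for the 85 other pathway genes, with replicate 4 of anti-CD3 on the horizontal and the mean of the anti-ICOS arrays on the vertical axis, both as log2 differences from the average of the other 3 anti-CD3 arrays, a reference the axes share. Pik3cb (0.29, 0.62) lies above the dashed line of equal values, Pik3ca (0.52, 0.44) lies just under it and Pik3r5 (-0.34, -0.049) stands to the left.

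The promoters of the 2 genes that passed without replicate 4 are shown with that of Pik3cg, which varied least, because the 3 differ in base composition and in the short motifs they hold. Each is the 250 bases before the RefSeq start site in GRCm38.p6, read 5′ to 3′ along the gene's strand: Pik3cb at chr9:99140212-99140461 (minus strand), Pik3ca at chr3:32396815-32397064 (plus strand), and the 1 of 2 overlapping windows of Pik3cg that holds a motif, at chr12:32208471-32208720 (minus strand). Capitals mark matches to the motifs searched on both strands. These were the GC box GGGCGG, the AP-1 site TGANTCA, the ETS site CCGGAAG, the FOXO site TGTTTAC, the cAMP response element TGACGTCA and the E-box CACGTG.
Pik3cb: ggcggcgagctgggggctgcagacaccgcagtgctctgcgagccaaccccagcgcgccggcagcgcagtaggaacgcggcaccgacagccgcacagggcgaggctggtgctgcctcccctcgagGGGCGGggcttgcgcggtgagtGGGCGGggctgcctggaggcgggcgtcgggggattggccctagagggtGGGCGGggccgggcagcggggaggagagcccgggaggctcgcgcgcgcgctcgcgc
Pik3ca: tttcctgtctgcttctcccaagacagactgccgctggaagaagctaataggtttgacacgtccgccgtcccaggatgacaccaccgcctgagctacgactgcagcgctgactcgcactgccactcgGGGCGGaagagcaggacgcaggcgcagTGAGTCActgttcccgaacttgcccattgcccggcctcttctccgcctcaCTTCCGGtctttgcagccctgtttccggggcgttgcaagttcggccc
Pik3cg: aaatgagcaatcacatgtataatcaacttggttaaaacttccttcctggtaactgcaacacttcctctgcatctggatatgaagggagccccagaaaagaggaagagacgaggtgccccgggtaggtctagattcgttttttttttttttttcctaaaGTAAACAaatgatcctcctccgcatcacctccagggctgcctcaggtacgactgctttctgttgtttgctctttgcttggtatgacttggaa

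The Pik3cb window was 78.0% G or C and held 3 GC boxes. The Pik3ca window was 61.6% G or C and held 1 GC box, 1 AP-1 site and 1 ETS site. The Pik3cg window was 44.0% G or C and held 1 FOXO site. The median over all 32851 promoter windows of this length was 52.4%. The GC box was present in 32.7% of all windows, the ETS site in 6.91%, the AP-1 site in 6.75%, the E-box in 6.02%, the FOXO site in 3.17% and the cAMP response element in 1.55%. All 9 genes matched the RefSeq table, with 13 windows, of which 7 held a GC box, 2 an ETS site, 1 an AP-1 site and 1 a FOXO site, and 0 an E-box or a cAMP response element. Genes that did not pass without replicate 4 held similar windows. For Pik3r1 1 window was 76.4% G or C with 4 GC boxes and the other 42.4% with 0. The Pik3r5 window was 61.6% with 4 GC boxes, that of Pik3r2 68.4% with 1 GC box and 1 ETS site. The Inpp4b window was 66.0% with 0 motifs. A match describes these letters and is not a test of binding.

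The wider pathway was read from a list of 90 other genes, of which 85 were measured. One of the 85 passed the test (1.18%, where 0.271% of all genes passed), Gab2, which encodes a scaffold that carries PI3-kinase and other signalling proteins. Its adjusted p was close to the threshold. Gab2 read 7.02, 6.96, 7.16 and 7.14 in anti-CD3 replicates 1 to 4, and 7.71 and 7.75 with anti-ICOS. Replicate 4 lay within the anti-CD3 range here, and the groups did not overlap, as in 8.51% of all genes in the same direction. Gab2 rose by 0.66 ± 0.084 (SE, limma adjusted p = 0.0449). The call was kept without replicate 4 (0.69, limma adjusted p = 0.000851) and ended against replicate 4 alone (0.59, limma adjusted p = 0.133). It also ended without any other 1 array, at adjusted p values of 0.220, 0.188 and 0.106 without anti-CD3 replicates 1, 2 and 3, and 0.320 and 0.344 without anti-ICOS replicates 1 and 2 (limma). With quantile normalization, median centring or an offset of 64 it was 0.0576, 0.0527 and 0.0624. Markers of some other cell types also lay higher with anti-ICOS, and their part in the values of Gab2 and the other pathway genes was not tested.

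Over the 85 genes the median difference was 0.093, with 58 above 0 and 27 below, where 42.3% of all genes lay above 0. Without replicate 4, 33 of the 85 passed higher and 14 lower (55.3%). Of all 19937 genes 3404 passed higher and 2526 lower in that fit (29.7%). Against replicate 4 alone 26 of the 85 lay above 0, with a median of -0.038, where 44.5% of all genes lay above 0. These shares of all genes are the background for the counts of each list below. The median over the 85 genes lay 0.15 above replicates 1 to 3 in replicate 4 and 0.10 above them with anti-ICOS.

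**Figure D4:**
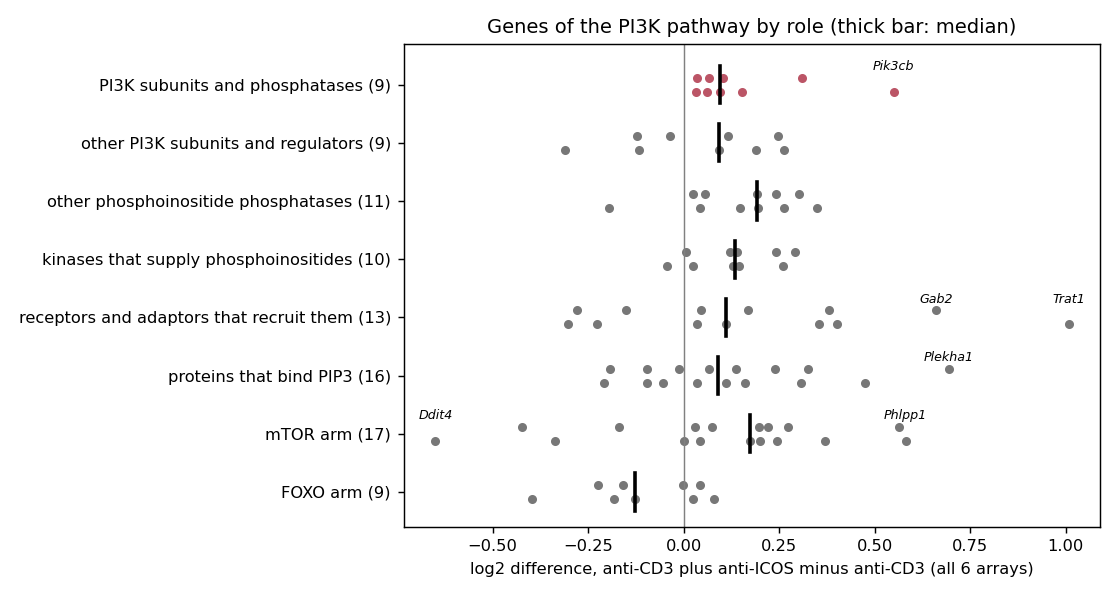
Each point is the log2 difference of 1 gene with all 6 arrays, in rows by role with the number of genes in brackets, and thick bars mark the medians. The 9 genes span 0.033 to 0.55, and among the others Trat1 lies highest at 1.01 and Ddit4 lowest at -0.65.

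Of 13 receptors and adaptors 9 lay above 0, with a median of 0.11. Without replicate 4, 6 passed higher and 3 lower, and against it alone 5 of 13 lay above 0, with a median of -0.086. Trat1, an adaptor of the T cell receptor that binds the regulatory subunit, read 7.71, 7.85, 7.42 and 8.52 in anti-CD3 replicates 1 to 4, and 9.01 and 8.76 with anti-ICOS. It had both anti-ICOS arrays on top, with replicate 4 next. It differed by 1.01 ± 0.28 (SE, limma adjusted p = 0.389). Without replicate 4 the difference of 1.22 passed the test (limma adjusted p = 0.000719), and against replicate 4 alone it was 0.36. Icos, the receptor engaged in one group, differed by 0.38 ± 0.11 (limma adjusted p = 0.414) and Cd28, its relative, by -0.28 ± 0.093 (limma adjusted p = 0.414). Both passed without replicate 4, Icos at 0.45 and Cd28 at -0.34 (limma adjusted p = 0.00361 and 0.00614), and against it alone they were at 0.16 and -0.10.

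Among the other subunits and regulators of the kinase 5 of 9 lay above 0, with a median of 0.093. Without replicate 4, 3 passed higher and 1 lower, and against it alone 2 of 9 lay above 0, with a median of -0.029. Pik3ap1, an adaptor of B cells and myeloid cells that binds the kinase, differed by -0.31 ± 0.10 (limma adjusted p = 0.414), by -0.36 without replicate 4 (limma adjusted p = 0.0133) and by -0.15 against it alone. Pik3c2b, a class II kinase, differed by 0.25 ± 0.12 (limma adjusted p = 0.423), by 0.33 without replicate 4 (limma adjusted p = 0.0170) and by -0.0055 against it alone. Pik3ip1, a membrane protein that restrains the kinase, read 10.38, 10.39, 10.33 and 10.96 in anti-CD3 replicates 1 to 4, and 10.68 and 10.73 with anti-ICOS, so that the anti-ICOS arrays lay between replicate 4 and the rest. Its difference was 0.19 ± 0.18 (limma adjusted p = 0.565), 0.34 without replicate 4 (limma adjusted p = 0.00685) and -0.25 against it alone.

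Of 11 other phosphoinositide phosphatases 10 lay above 0, with a median of 0.19. Without replicate 4, 6 passed higher and 1 lower, while against it alone 2 of 11 lay above 0, with a median of -0.057. Synj1, which removes phosphates from PIP2 and related lipids, differed by 0.35 ± 0.093 and Inpp5k by -0.20 ± 0.083 (limma adjusted p = 0.382 and 0.421). Without replicate 4 both passed, at 0.41 and -0.24 (limma adjusted p = 0.00266 and 0.0236), and against it alone they were at 0.17 and -0.057. Of 10 kinases that supply the substrate lipids 9 lay above 0, with a median of 0.13 and Pi4k2a at 0.29 and Pi4k2b at 0.14 (limma adjusted p = 0.436 and 0.423). Without replicate 4, 4 of the 10 passed, all higher, while against it alone 2 of 10 lay above 0, with a median of -0.026. Pi4k2a was at 0.39 without replicate 4 (limma adjusted p = 0.0458) and -0.011 against it alone, and Pi4k2b at 0.14 (limma adjusted p = 0.141) and 0.13.

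The list drawn up for proteins that bind PIP3, not all of which bind it directly, had a median of 0.090, with 10 of 16 above 0. Without replicate 4, 6 passed higher and 2 lower, and against it alone 6 of 16 lay above 0, with a median of -0.023. Plekha1, whose domain binds the product of SHIP-1, differed by 0.69 ± 0.26 (limma adjusted p = 0.417), with 0.92 without replicate 4 (limma adjusted p = 0.000176) and 0.019 against it alone. Adap1, a PIP3-binding regulator of the small G protein ARF6, differed by 0.48 ± 0.11 (limma adjusted p = 0.298), by 0.53 without replicate 4 (limma adjusted p = 0.00522) and by 0.31 against it alone.

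In the mTOR arm 12 of 17 lay above 0, with a median of 0.17. Without replicate 4, 8 passed higher and 3 lower, and against it alone 7 of 17 lay above 0, with a median of -0.017. Phlpp1, a phosphatase of AKT, differed by 0.58 ± 0.15 and Ddit4, a stress-induced inhibitor of mTOR, by -0.65 ± 0.20 (limma adjusted p = 0.363 and 0.414). Both passed without replicate 4, at 0.70 and -0.81 (limma adjusted p = 0.000337 and 0.000613), and against it alone they were at 0.22 and -0.16. The FOXO arm, of factors that AKT keeps out of the nucleus and some of their targets, had a median of -0.13 with 3 of 9 above 0. Without replicate 4, 0 passed higher and 4 lower, and against it alone 2 of 9 lay above 0, with a median of -0.066. Klf2, a quiescence factor, differed by -0.22 ± 0.071 and Ccng2, an atypical cyclin, by -0.40 ± 0.19 (limma adjusted p = 0.414 and 0.423). Both passed without replicate 4, at -0.24 and -0.54 (limma adjusted p = 0.0320 and 0.00592), and against it alone they were at -0.18 and 0.022.

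The genes of nearest profile were sought for the 3 of the 9 with the smallest p, over the same 6 arrays and 19937 genes. For Pik3cb, whose values span 0.79, they were Adap1 at a root mean square distance of 0.048, Ly75 at 0.062 and Icosl at 0.066. Ly75 encodes the uptake receptor DEC-205 and Icosl the ligand of ICOS. For Pik3ca, with a span of 0.59, they were Asxl2 (0.0070), Xpo5 (0.018) and Gripap1 (0.020), in all of which replicate 4 was the highest array. For Pik3r1, with a span of 0.32, they were Scyl3 (0.011), Eef1aknmt (0.013) and Wdr13 (0.014). None of these 9 genes of like profile passed the test with all 6 arrays (limma adjusted p between 0.175 and 0.460). They were picked for values like those of Pik3cb, Pik3ca and Pik3r1, so their p-values and the place of replicate 4 follow from that choice. Neither is a further result.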

How the data were processed

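Total RNA of 6 cultures of mouse CD4+ T cells, 1 ug each per the labels' protocols, was read on 6 Affymetrix Mouse Gene ST arrays. The deposited values are linear intensities per probe set and were used as given. The submitters' processing notes name MAS5 only; how background was corrected, probes summarised and arrays normalized is not given in the sources used here.

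Probe sets with 1 gene symbol in the platform annotation were kept (21640 of 34760), the brightest of each gene was used (19937 genes), and values were taken as log2(intensity + 16) with no filter. The offset makes differences of dim genes smaller. Groups and replicate numbers came from the sample titles. The fit used lmFit and eBayes of limma 3.58.1 (R 4.3.3) on every gene and leaves 4 residual degrees of freedom. Two-sided p-values were adjusted by Benjamini-Hochberg across the 19937 genes; a gene passed at 0.05. Intervals are limma's 95% intervals of the difference. An exact permutation test of 1 gene cannot go below a two-sided p of 0.133 with these group sizes and was not used. Tested on simulated data for these 4 against 2 arrays (5 runs, 19937 genes, 200 of them changed, independent noise), the limma fit found 85.2% of the 2-fold changes, 98.2% of the 4-fold ones and 12 false positives a run, rates that hold for no array standing apart as replicate 4 does.

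The 9 genes and the lists of pathway genes and cell type markers were chosen with earlier results of these data known. From each pathway list the 2 genes of smallest p are named, with Icos, Cd28 and Pik3ip1. For the 3 of the 9 genes with smallest p, the 3 genes of nearest profile are named, by the root mean square distance of log2 values less their own mean over the 6 arrays. Of the listed pathway genes 5 had no probe set with 1 symbol and are not reported here. Promoter windows are from RefSeq (GRCm38.p6). As alternatives the fit was repeated with quantile-normalized or median-centred arrays, offsets of 1 and 64, the dimmest 40% of genes left out, a trended and robust prior, array weights, probe sets averaged per gene, all probe sets kept apart, a replicate block, leaving out each array, replicate 4 of anti-CD3 as the only reference, and a threshold of 0.1. Plots were drawn with matplotlib 3.10.9.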

Additional observations from a re-analysis of the deposited data

Results flagged for a closer look

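In 8 of 34 genes looked at (the 9 PI3-kinase and phosphatase genes, the named pathway genes and the genes of like profile) 1 array lay apart from the other 3 of the anti-CD3 group, meaning that its gap to the nearest array, over the range of the 4, was above Dixon's 95% limit. Chance sets apart about 1 group in 20, and over all 19937 genes the share was 8.69%. Of the 9 PI3-kinase and phosphatase genes it was 1, Pik3cd (11.1%). Most of the other genes looked at were picked from these same arrays, by smallest p or by like profile. Their count is therefore no measure of an excess over all genes. In each of the 8 it was anti-CD3 replicate 4. Its log2 value was 11.29 for Pik3cd, 9.86 for Pik3c2b, 9.06 for Synj1, 8.51 for Plekha1, 9.33 for Phlpp1, 10.96 for Pik3ip1, 8.29 for Icosl and 9.52 for Xpo5. All 8 values lay above those of replicates 1 to 3. The cause was not tested.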

How the results depend on the processing

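Leaving out 1 array gave 0 to 2 of the 9 genes past the threshold, 0 to 47 of the 85 pathway genes and 16 to 5930 of all genes, the highest always without anti-CD3 replicate 4. With array weights it was 3 of the 9, 54 of the 85 and 9413 of all genes. With the replicate block it was 2, 46 and 6551. That fit takes the difference from replicates 1 and 2 alone, since the labels give numbers 3 and 4 to 1 group only. Same-numbered arrays deviated from their group means with correlations of -0.039 and 0.10 across genes. These values cannot show whether the numbers are pairs, because the deviations of 2 anti-ICOS arrays from their mean mirror each other. Anti-CD3 replicate 1 thus had -0.039 with anti-ICOS replicate 1 and 0.039 with replicate 2. The titles give replicate numbers without naming pairs, and the main fit does not use them as pairs. Against replicate 4 alone it was 0, 0 and 35. Of the 85 pathway genes 0 passed with quantile normalization, median centring or an offset of 64, and of all genes 28 passed with an offset of 64 and 85 at a threshold of 0.1. The sign turned against replicate 4 alone for Pik3ca (-0.079), Pik3cd (-0.064), Pik3r2 (-0.033), Inpp4b (-0.13), Pik3c2b (-0.0055), Pi4k2a (-0.011), Ccng2 (0.022), Pik3ip1 (-0.25), Asxl2 (-0.080), Xpo5 (-0.10) and Gripap1 (-0.10). It turned with quantile normalization for Pik3cg (-0.060) and Pik3r5 (-0.0076), and for Pik3r5 also with array weights (-0.040), with the replicate block (-0.020) and without anti-CD3 replicate 4 (-0.049, the lowest of the values with 1 array left out, the highest being 0.084). The cause was not tested. Of the values of single genes under these settings 482 kept their direction and their side of the threshold, 70 passed only in the alternative, 9 (all Gab2) ended their call and 16 turned sign. A change of prior or of gene filter cannot turn a sign, nor can probe set handling for a gene with 1 probe set. The runs for single pathway genes and genes of like profile were added after the data were seen. With 2 anti-ICOS arrays, differences such as those of Pik3cd and Inpp5d are smaller than their intervals can resolve.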
